A study of Mus musculus with 18 samples.

Results

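The cyclin-dependent kinase (CDK) inhibitors and the D-type cyclins were described as a set of 10 genes in mouse bone marrow cells that were homozygous knockout (KO), heterozygous knockout (HET) or wild type (WT) for Fabp4, a fatty acid binding protein gene best known from adipocytes and macrophages. The 10 genes were taken by name: the INK4 inhibitors Cdkn2a, Cdkn2b, Cdkn2c and Cdkn2d, the CIP/KIP inhibitors Cdkn1a, Cdkn1b and Cdkn1c, and the cyclins Ccnd1, Ccnd2 and Ccnd3. All 10 were listed among 22017 genes of the in vitro table and among 13195 genes of the bone marrow table, out of 22608 genes in either. The set was chosen by a measured value, the level of Cdkn2c, which in vitro was higher in KO cells than in WT cells, with the rest of its family added by name, so the in vitro KO against WT values of all 10 genes, and every in vitro value of Cdkn2c, are given as a description with no test.

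D-type cyclins are made when a cell receives growth signals, bind the kinases CDK4 and CDK6, and let them phosphorylate the retinoblastoma protein, which releases E2F factors and opens S phase. INK4 proteins bind CDK4 and CDK6 alone and keep the D-type cyclins off, whereas CIP/KIP proteins bind complexes of cyclin and kinase, block CDK2 complexes, and can also help a D-type cyclin to assemble with its kinase. In blood cells these genes are known for setting how often stem and progenitor cells divide and for the cell cycle exit of maturing cells.

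Bulk RNA was sequenced from 2 sets. The first was sorted from what the labels call vitro bone marrow, named in vitro here, with 3 KO, 3 HET and 3 WT libraries; the second was sorted from bone marrow, with 3 KO, 2 HET (replicates 1 and 3; replicate 2 was not used here) and 3 WT libraries. The labels name neither the sorted cells, nor the culture, nor the allele, age, sex or strain of the mice. The series title asks about Fabp4 in leukemia stem cells and hematopoietic stem cells.

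Values are FPKM (fragments scaled by transcript length and by library size), which can be compared between genes. In vitro, Fabp4 itself was at 0 FPKM in all 3 KO libraries, between 0 and 0.0676 in HET and between 0 and 0.330 in WT, too low to check the genotype labels, and it was not analysed here in bone marrow. Approximate depth, read from the steps between low values, was 30.3 to 36.8 M fragments in vitro, and in bone marrow 16.6 to 36.4 M in KO, 4.02 and 11.8 M in HET and 22.1 to 31.2 M in WT. Between 16779 and 18029 genes were above 0 in each in vitro library, and pairs of these libraries had a Spearman coefficient of 0.962 to 0.970. In bone marrow, 6560 to 8519 genes were above 0 in KO libraries, 3633 and 5209 in HET and 8194 to 8526 in WT, and the coefficient was 0.427 to 0.621. The leukocyte gene Ptprc was present in every library, at 39.0 to 60.2 FPKM in vitro and 47.9 to 88.4 FPKM in bone marrow. The stem and progenitor gene Kit was at 18.7 to 31.7 FPKM in vitro, whereas in bone marrow it was at 0.0472, 19.4 and 1.60 FPKM in KO, listed as 0 for each HET library, and at 1.90, 0.00747 and 8.51 FPKM in WT. Xist and a Y gene were found together in 9 of 9 in vitro libraries, so a library may hold cells of several mice. The Y gene Ddx3y also moved with the genotype in vitro, at 5.48 to 7.10 FPKM in KO, 8.91 to 11.7 in HET and 2.39 to 3.82 in WT, and its part in any result below was not tested. In bone marrow, Xist and a Y gene were found together in 4 of the 8 libraries. Xist was at 5.01, 13.8 and 9.81 FPKM in KO, at 31.4 and 65.1 in HET and at 57.2, 37.6 and 46.0 in WT. The Y gene Eif2s3y was at 5.847, 4.755 and 1.104 FPKM in KO and listed as 0 in HET and WT libraries. Among WT libraries Ddx3y was above 0 in replicate 3 (3.90 FPKM). The part of these genes in the bone marrow results was not tested either.

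Cdkn2c encodes p18INK4c, an INK4 protein known in mice for restraining the self-renewal of hematopoietic stem cells. In vitro, Cdkn2c was at 42.7, 42.9 and 39.1 FPKM in the KO libraries, at 25.3, 23.2 and 23.9 in HET and at 26.5, 25.5 and 26.3 in WT. All 3 KO libraries lay above all 6 others, and the KO mean was 1.59 times the WT mean and 1.72 times the HET mean. On the log2(FPKM + 1) scale the difference was 0.65 ± 0.07 for KO minus WT, 0.76 ± 0.07 for KO minus HET and -0.11 ± 0.07 for HET minus WT (SE of the fit, n = 3 libraries each). HET libraries did not lie between the other genotypes, but they nearly touched the WT libraries. The highest HET library (25.3 FPKM) lay just under the lowest WT library (25.5 FPKM), and 29.1% of all genes did not overlap in HET against WT. In TPM the HET minus WT difference of Cdkn2c was -0.038. In bulk RNA, a larger share of cells with much Cdkn2c and more Cdkn2c RNA per cell cannot be told apart.

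The other INK4 genes did not share this pattern. Cdkn2d encodes p19INK4d, the INK4 protein best known from maturing and postmitotic cells, and its level was 34.1, 42.7 and 33.8 FPKM in KO, 30.7, 39.9 and 41.0 in HET and 45.5, 44.1 and 45.1 in WT. All KO and all HET libraries lay below all WT libraries. Its log2 difference was -0.28 ± 0.12 for KO minus WT, and -0.28 ± 0.12 for HET minus WT, which did not pass the threshold of 0.05 (limma, adjusted p = 0.182). For KO minus HET it was -0.01 ± 0.12, with overlapping groups.

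Cdkn2a makes p16INK4a and, from another first exon, p19ARF, which acts on p53 rather than on the kinases; the FPKM value pools both. It was at 33.6, 29.3 and 35.2 FPKM in KO, at 45.5, 46.5 and 40.6 in HET and at 25.5, 38.0 and 41.7 in WT. All KO libraries lay below all HET libraries (log2 difference -0.43 ± 0.15, limma adjusted p = 0.215), while HET and WT overlapped (0.35 ± 0.15, adjusted p = 0.183). The KO against HET call depended on the fit: with only those groups fitted the adjusted p was 0.0306, and without WT replicate 1 it was 0.0266. Cdkn2b encodes p15INK4b and lies next to Cdkn2a; it was low, at 3.74 to 4.90 FPKM in KO, 3.77 to 6.80 in HET and 2.72 to 5.81 in WT, and all its genotypes overlapped (HET minus WT 0.11 ± 0.23, adjusted p = 0.808).

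The annotated starts of Cdkn2c and Cdkn2d are shown because these genes of the same family had differences of opposite sign. Each sequence is the 300 bases around a start, read 5′ to 3′ on the gene's strand, which is the minus strand here (RefSeq, GRCm38.p6). Cdkn2c has a start in chr4:109666707-109667006 and another in chr4:109665323-109665622, and Cdkn2d has one in chr9:21291160-21291459. Capitals mark the GC box GGGCGG, which reads CCGCCC where it lies on the other strand, and the E-box motif CACGTG.
Cdkn2c, upstream start: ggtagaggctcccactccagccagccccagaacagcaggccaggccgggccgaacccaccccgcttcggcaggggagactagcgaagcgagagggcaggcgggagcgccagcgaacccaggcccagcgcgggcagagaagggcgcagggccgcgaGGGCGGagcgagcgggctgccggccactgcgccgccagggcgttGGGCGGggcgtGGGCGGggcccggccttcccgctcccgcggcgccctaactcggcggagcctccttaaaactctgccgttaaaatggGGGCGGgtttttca
Cdkn2c, downstream start: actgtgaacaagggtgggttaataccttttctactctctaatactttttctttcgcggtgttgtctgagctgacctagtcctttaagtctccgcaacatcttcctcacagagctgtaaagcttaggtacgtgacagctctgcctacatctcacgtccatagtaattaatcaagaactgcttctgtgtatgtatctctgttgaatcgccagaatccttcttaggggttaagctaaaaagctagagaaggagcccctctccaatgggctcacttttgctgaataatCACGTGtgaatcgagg
Cdkn2d: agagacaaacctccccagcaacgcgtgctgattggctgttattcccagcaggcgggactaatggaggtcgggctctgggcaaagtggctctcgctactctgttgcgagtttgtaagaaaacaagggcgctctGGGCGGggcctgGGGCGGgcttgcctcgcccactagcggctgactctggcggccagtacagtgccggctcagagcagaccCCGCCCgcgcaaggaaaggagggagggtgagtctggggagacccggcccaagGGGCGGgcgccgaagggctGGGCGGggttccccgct

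The upstream Cdkn2c start held 4 GC boxes, at positions -95, -51, -40 and 37 from the start, and the downstream one held none and an E-box at position 35. Cdkn2d held 5 GC boxes. A GC box was in 35.7% of the 32851 mouse promoters of that length and the E-box in 7.15%. Both strands were searched, also for the AP-1 motif TGANTCA (in 7.81% of all promoters), for the TATA motif TATAAA (in 13.6%), and for 3 E2F-type motifs: TTTGGCGC, TTTCGCGC and TTTCCCGC. At least 1 of the E2F-type motifs was in 1.84% of all promoters and, of the 11 sequences that covered 7 of the 10 genes, in 1, an upstream start of Cdkn2a, which held TTTCCCGC. These matches describe letters only, and the files do not say which start was used.

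Among the CIP/KIP genes, Cdkn1a, which encodes the p53 target p21, had the highest mean level of all 10 genes in WT cells in vitro. Cdkn1a was at 125.0, 125.5 and 122.9 FPKM in KO, at 126.5, 154.9 and 151.0 in HET and at 166.7, 183.1 and 184.3 in WT. The genotypes did not overlap in any pairing, with KO lowest and WT highest, but KO and HET nearly touched. HET replicate 1 (126.5 FPKM) lay just above the highest KO library (125.5), and the SD within HET was 15.4 FPKM. KO minus WT was -0.51 ± 0.08 on the log2 scale, or 0.699 times the WT mean. HET minus WT was -0.31 ± 0.08 and missed the threshold (limma, adjusted p = 0.0629; unadjusted 0.00327), but passed without WT replicate 1 (adjusted p = 0.045). KO minus HET was -0.20 ± 0.08 (adjusted p = 0.301).

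Cdkn1a is shown for the contrast with Cdkn2c: its starts lie in chr17:29090729-29091028 and chr17:29093519-29093818 on the plus strand (300 bases each, RefSeq, GRCm38.p6). Capitals mark GC boxes and the p53-type letters CATGNNNNNNCATG, a pattern that was added after this sequence had been read.
Cdkn1a, upstream start: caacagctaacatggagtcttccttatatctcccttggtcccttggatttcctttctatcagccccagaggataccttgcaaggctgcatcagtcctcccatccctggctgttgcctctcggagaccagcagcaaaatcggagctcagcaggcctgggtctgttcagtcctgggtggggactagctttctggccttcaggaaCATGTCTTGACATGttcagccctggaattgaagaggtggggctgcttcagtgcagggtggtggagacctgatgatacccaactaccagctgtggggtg
Cdkn1a, downstream start: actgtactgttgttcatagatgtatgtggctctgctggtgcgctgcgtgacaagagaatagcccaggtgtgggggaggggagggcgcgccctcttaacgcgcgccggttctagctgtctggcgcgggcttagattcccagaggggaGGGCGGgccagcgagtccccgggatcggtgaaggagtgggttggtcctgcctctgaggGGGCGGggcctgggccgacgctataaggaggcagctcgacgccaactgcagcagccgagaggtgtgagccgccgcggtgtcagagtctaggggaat

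The p53-type pattern stood once in the upstream sequence, at position -48, and in 0.712% of all promoters; the downstream sequence held 2 GC boxes. Of 22 tested p53 pathway genes 0 were called by limma in KO against WT or in HET against WT (4 and 1 at an unadjusted p under 0.05), and the list's median log2 difference was 0.05 in KO minus WT and -0.01 in HET minus WT, against 0.04 and 0.04 over all genes tested.

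Cdkn1b encodes p27, which accumulates in resting cells. It was at 33.9, 33.1 and 30.0 FPKM in KO, at 30.5, 41.0 and 44.3 in HET and at 40.7, 35.6 and 34.4 in WT. The highest KO library lay just under the lowest WT library, and HET overlapped both (KO minus WT -0.19 ± 0.12; HET minus WT 0.05 ± 0.12, limma adjusted p = 0.842). Cdkn1c encodes p57, an imprinted inhibitor known for keeping mouse hematopoietic stem cells quiescent. It was low, at 2.72, 2.22 and 2.35 FPKM in KO, 1.94, 2.20 and 1.41 in HET and 1.45, 1.42 and 1.86 in WT. All KO libraries lay above all HET and WT libraries, though KO replicate 2 exceeded HET replicate 2 by less than the spread within either genotype, with a log2 difference of 0.41 ± 0.13 for KO minus WT and 0.28 ± 0.13 for KO minus HET (adjusted p = 0.382). On this scale the differences of so low a gene are understated.

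The D-type cyclins were close between genotypes in vitro. Ccnd3, the D-type cyclin that dominates in many blood cells, was at 134.8, 127.7 and 126.4 FPKM in KO, at 145.9, 140.0 and 130.6 in HET and at 111.6, 136.9 and 153.9 in WT, and the WT libraries spanned the other genotypes. Ccnd2 was at 22.3, 17.6 and 21.1 FPKM in KO, at 24.3, 22.3 and 22.9 in HET and at 19.8, 20.9 and 17.1 in WT. The HET libraries lay above the others (HET minus WT 0.26 ± 0.10, limma adjusted p = 0.155; KO minus HET -0.19 ± 0.10, adjusted p = 0.493). Ccnd1, a cyclin more typical of epithelial and mesenchymal cells, was at 1.42 to 1.66 FPKM in KO, 1.30 to 1.65 in HET and 1.04 to 1.95 in WT, and the adjusted p for HET against WT was 0.738 for Ccnd1 and 0.762 for Ccnd3 (limma). Summed over the 3 cyclins, the level was 151.5 ± 6.25 FPKM in KO, 163.5 ± 8.50 in HET and 155.0 ± 20.6 in WT (SD, n = 3 libraries each; exact two-sided permutation p = 0.7 for HET against WT, where 0.1 is the smallest possible).

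**Figure D1:**
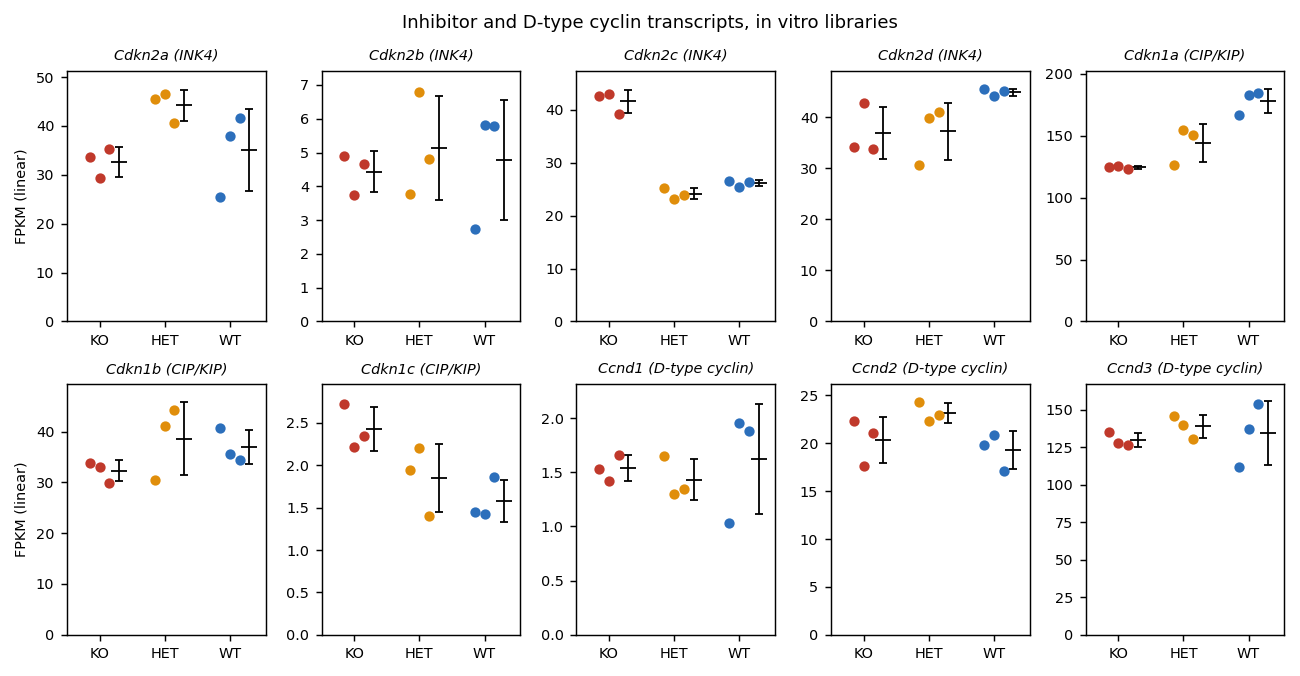
FPKM (linear axis from 0) of the 10 genes in the in vitro libraries, grouped as KO, HET and WT; points are libraries, and the line and bars beside them are the mean and SD. The 3 KO libraries of Cdkn2c sit between 39.1 and 42.9 FPKM, above every HET and WT library, and those of Cdkn1a between 122.9 and 125.5 FPKM, below every other library.

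By mean level in WT cells the order was Cdkn1a, Ccnd3, Cdkn2d, Cdkn1b, Cdkn2a, Cdkn2c, Ccnd2, Cdkn2b, Ccnd1 and Cdkn1c. The WT libraries of Cdkn1b and Cdkn2a overlapped, as did those of Cdkn2a and Cdkn2c and those of Ccnd1 and Cdkn1c; the other neighbours in this order did not overlap. In KO cells Cdkn2c (41.6 ± 2.12 FPKM) came before Cdkn2d (36.9 ± 5.04), Cdkn2a (32.7 ± 3.04) and Cdkn1b (32.3 ± 2.07), with libraries that overlapped those of Cdkn2d only.

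Counted over the set, 5 of 10 genes had KO libraries that did not overlap the WT libraries (Cdkn2c and Cdkn1c higher; Cdkn1a, Cdkn2d and Cdkn1b lower), where 22.9% of all 10877 genes tested did so; as this comparison chose the set, nothing is read from that count. In HET against WT, which shares the WT libraries with that comparison, 0 of 9 genes (Cdkn2c not tested) passed limma's test, where 3.68% of all genes did (2.94% higher and 0.735% lower). At an unadjusted p under 0.05 there were 4 of the 9 (Cdkn1a, Cdkn2a, Cdkn2d and Ccnd2), against 23.4% of all genes, and 3 of the 9 did not overlap, against 29.1%. In KO against HET, which shares the KO libraries, 0 of 9 passed, where 1.99% of all genes did (0.598% higher and 1.39% lower), 2 of 9 had an unadjusted p under 0.05, against 13.2%, and 4 of 9 did not overlap, against 22.4%.

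**Figure D2:**
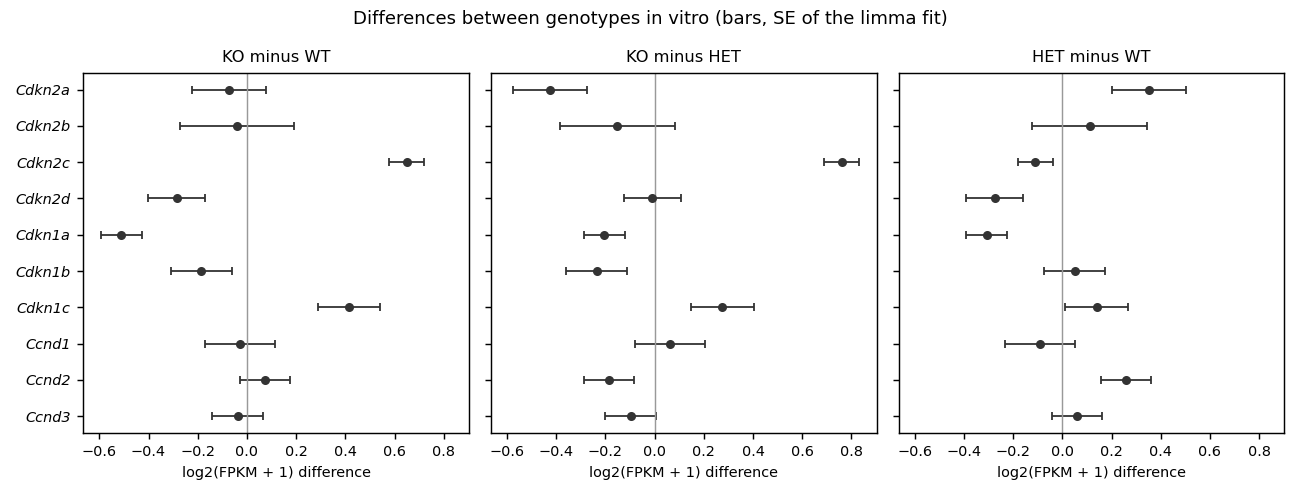
Differences in log2(FPKM + 1) in vitro for KO minus WT, KO minus HET and HET minus WT; points are fitted differences and bars their SE (n = 3 libraries per genotype). Cdkn2c lies at 0.65 and 0.76 against WT and HET and at -0.11 between them, while Cdkn1a is below 0 in all 3 panels (-0.51, -0.20 and -0.31).

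Since FPKM are scaled by length, the INK4 transcripts can be summed. The INK4 sum was 115.2, 118.6 and 112.8 FPKM in KO, 105.2, 116.3 and 110.3 in HET and 100.2, 113.3 and 118.9 in WT, and these ranges overlapped. Within it, the share of Cdkn2c was 37.03, 36.17 and 34.69% in KO, 24.02, 19.93 and 21.65% in HET and 26.45, 22.48 and 22.14% in WT. The KO libraries thus held a larger part of Cdkn2c in a sum of similar size, while HET and WT shares overlapped. The sum of the 7 inhibitors over the sum of the 3 cyclins was 1.75, 1.90 and 1.80 in KO, 1.54, 1.92 and 1.98 in HET and 2.33, 2.09 and 1.96 in WT. All KO libraries were below all WT libraries on this ratio, whereas HET overlapped both (exact two-sided permutation p = 0.2 for HET against WT). The difference between KO and WT lay mostly in Cdkn1a, with means of 124.5 FPKM in KO and 178.0 in WT. The INK4 sum had means of 115.6 and 110.8 FPKM, and the cyclin sum 151.5 and 155.0.

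In bone marrow, 8 of the 10 genes passed the filter of at least 1 FPKM in at least 3 libraries. Cdkn2a was listed at 0 in all libraries but WT replicate 1 (0.162 FPKM), and Cdkn2b at 0 in all but KO replicate 2 (14.9 FPKM). The values of the others spread far more between libraries than in vitro, and the tables may have been scaled apart, so levels are not compared across them. A value of 0 can also be a failed estimate.

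Cdkn2c was at 171.4, 47.8 and 124.2 FPKM in KO, at 166.8 and 0.381 in HET and at 129.5, 77.7 and 59.1 in WT, so all genotypes overlapped (KO minus WT 0.26 ± 1.45 on the log2 scale, limma adjusted p = 0.999). That SE exceeded the in vitro difference of 0.65, so a difference of that size was not detectable here. Cdkn2d was at 130.9, 236.5 and 140.9 FPKM in KO, at 221.6 and 103.0 in HET and at 403.8, 415.7 and 328.9 in WT. All KO and HET libraries lay below all WT libraries, as in vitro (KO minus WT -1.22 ± 0.50, limma adjusted p = 0.878, unadjusted 0.0327; HET minus WT -1.33 ± 0.56, adjusted p = 0.359).

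Cdkn1a was at 192.1, 78.9 and 57.2 FPKM in KO, at 106.3 and 0 in HET and at 331.3, 284.9 and 307.8 in WT. Again no KO or HET library reached the lowest WT library (KO minus WT -1.68 ± 1.35, limma adjusted p = 0.995; HET minus WT -4.90 ± 1.51, adjusted p = 0.225). Leaving out HET replicate 1, so that HET replicate 3 stood alone and was taken to vary like the other groups, gave -8.27 (adjusted p = 0.00153), and the same for Cdkn2c gave -5.95 (adjusted p = 0.0152). Both calls rest on 1 library with an estimated 11.8 M fragments and 5209 genes above 0. Cdkn1b was at 21.2, 12.02 and 1.79 FPKM in KO, at 0 and 10.2 in HET and at 23.6, 9.21 and 3.99 in WT, and overlapped throughout. Cdkn1c was listed above 0 in KO replicate 3 (29.7 FPKM) and in WT replicates 1 and 2 (13.7 and 15.1 FPKM) and at 0 in the other 5 libraries.

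Ccnd3 was the cyclin with the highest values in bone marrow, at 102.8, 221.5 and 140.8 FPKM in KO, at 71.4 and 19.2 in HET and at 77.2, 71.2 and 106.5 in WT. KO and WT overlapped by 1 library (0.81 ± 0.75, limma adjusted p = 0.995). Ccnd2 was at 6.71, 0.228 and 6.87 FPKM in KO, at 0 and 3.78 in HET and at 0.747, 4.06 and 12.8 in WT, and Ccnd1 was above 0 in KO replicates 2 and 3 (1.44 and 10.8 FPKM) and WT replicate 1 (19.5 FPKM) only. None of the cyclins separated KO or HET libraries from WT libraries.

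**Figure D3:**
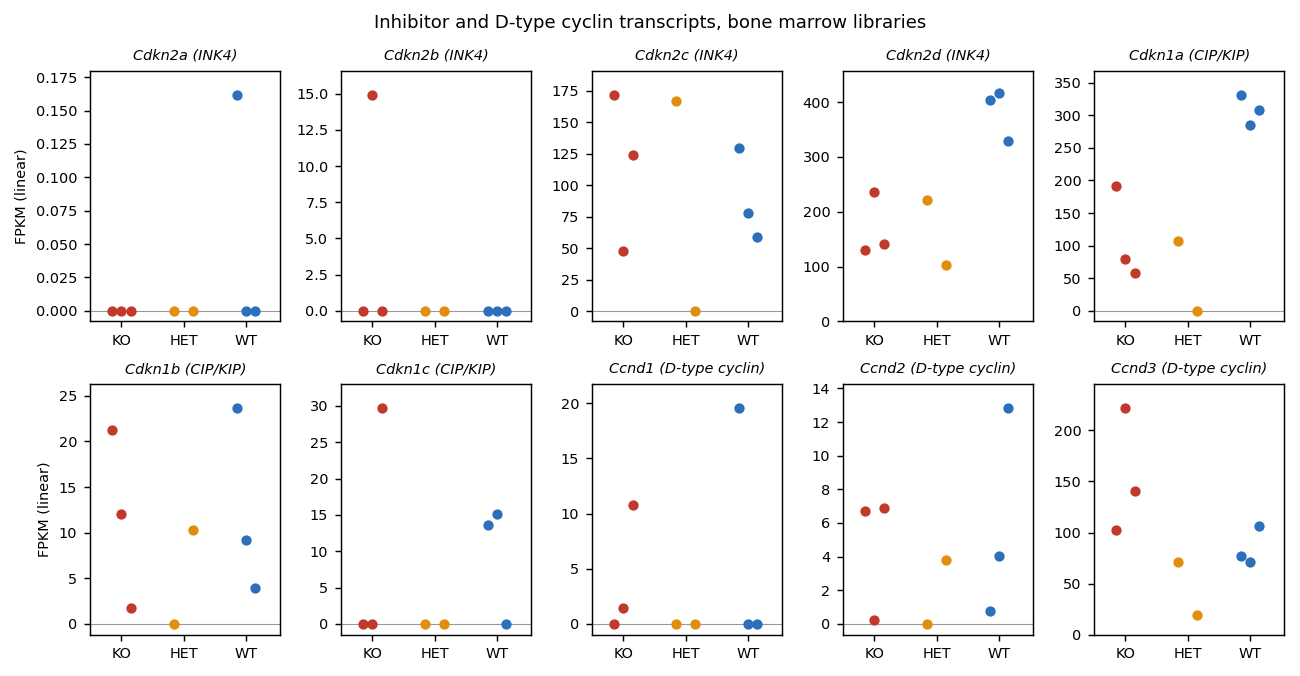
FPKM (linear axis) of the 10 genes in the bone marrow libraries, grouped as KO (3), HET (2) and WT (3); each point is a library. The WT libraries of Cdkn1a (284.9 to 331.3 FPKM) and Cdkn2d (328.9 to 415.7 FPKM) sit above every KO and HET library, while Cdkn2c overlaps between genotypes.

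Across the bone marrow set, 0 of 8 tested genes passed limma's test in KO against WT, where 0% of 7246 genes did; at an unadjusted p under 0.05 there was 1 of 8 (Cdkn2d), against 5.11% (370 genes), and 2 of 8 did not overlap, against 12.3%. In HET against WT, 0 of 8 passed, where 0.262% did, 2 of 8 had an unadjusted p under 0.05, against 12.4%, and 2 of 8 did not overlap, against 30.1%. All 8 had a lower fitted value in HET than in WT, but so did 70.5% of all genes, with a median of -0.99 over all genes and -1.57 over the 8.

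Summed inhibitors were lower against summed cyclins in KO marrow than in WT marrow, in values that restate the genes above. The ratio of their sums was 4.71, 1.75 and 2.23 in KO, 6.93 and 4.94 in HET and 9.25, 10.7 and 5.87 in WT. All 3 KO libraries were below all 3 WT libraries (exact two-sided permutation p = 0.1, the smallest that 3 against 3 can give); HET lay above KO and overlapped WT. The cyclin sum was 109.5, 223.1 and 158.4 FPKM in KO and 97.51, 75.25 and 119.3 in WT, with overlap (exact permutation p = 0.2). The INK4 sum was 302.3, 299.2 and 265.1 FPKM in KO, 388.5 and 103.3 in HET and 533.5, 493.4 and 388.0 in WT. KO and WT did not overlap on it (exact permutation p = 0.1). Its lower KO values lay in Cdkn2d, with means of 169.4 FPKM in KO and 382.8 in WT. The ratio also held Cdkn1a, with means of 109.4 and 308.0. Neither sum nor ratio is thus separate from those genes. The share of Cdkn2c in the INK4 sum was 56.7, 16.0 and 46.9% in KO, 43.0 and 0.369% in HET and 24.3, 15.8 and 15.2% in WT, with overlap (exact permutation p = 0.2 for KO against WT). The summed FPKM of 16 neutrophil genes was 137500 to 212900 in KO, 132500 and 132700 in HET and 7583 to 57580 in WT. Ltf, Ly6g, Retnlg and Cxcr2 were listed as 0 for each HET library and Ly6g at 0 in all WT libraries. Much of the KO and HET sums was S100a8, at 83030 to 138700 FPKM in KO, 90400 and 94380 in HET and 836.6 to 33970 in WT. Elane overlapped between KO and WT (3923 to 4234 and 2122 to 5347 FPKM). Mpo in HET (353.1 and 378.7 FPKM) lay below WT (387.4 to 651.9). Of 14 tested neutrophil genes 0 were called in KO or HET against WT, where 0% and 0.262% of all genes were. Their median log2 difference was 1.86 and 0.50. The part of neutrophil genes in these ratios and in the lower Cdkn1a and Cdkn2d values was not tested.

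**Figure D4:**
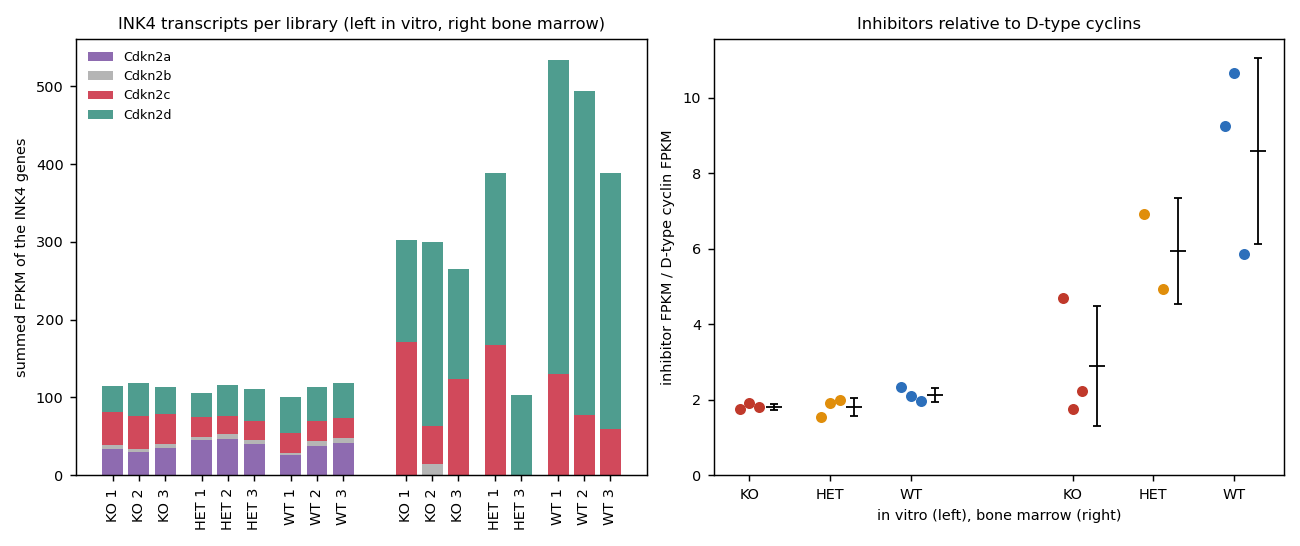
Left, FPKM of the INK4 genes stacked for each library, in vitro and then bone marrow, each in the order KO, HET, WT; right, the summed inhibitors over the summed D-type cyclins (linear axis from 0; points are libraries, line and bars the mean and SD, n = 3, or 2 for HET marrow). In vitro the stacks are of similar height with Cdkn2c at 34.7 to 37.0% in KO, and in bone marrow the ratio is 1.75 to 4.71 in KO and 5.87 to 10.7 in WT.

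Lists of genes that act around the set differed in their counts of calls in vitro. Over all 10 lists, 176 different genes were tested; 11 were called in KO against WT, where 2.99% of all genes were, and 7 in HET against WT, where 3.68% were. At an unadjusted p under 0.05 there were 40 (22.7%) in KO against WT and 30 (17.0%) in HET against WT, where 19.4% and 23.4% of all genes had one. Of 12 tested G1 kinase and cyclin E genes 0 were called in KO against WT or HET against WT, and so were 0 of 18 pocket protein, E2F and DREAM genes, 0 of 22 mitotic genes, 0 of 14 FOXO genes and 0 of 17 Polycomb genes, a group that includes repressors of the Cdkn2a locus (limma). The other lists held the calls described below. Cdk4, the kinase that INK4 proteins bind, was at 167.3 ± 15.4 FPKM in KO, 173.9 ± 10.8 in HET and 202.0 ± 11.7 in WT (SD, n = 3 libraries each), with all KO and HET libraries below all WT libraries. Its difference missed the threshold in KO against WT (-0.27 ± 0.08, limma adjusted p = 0.102) and passed without KO replicate 2 (adjusted p = 0.0403). Its partner kinase Cdk6 was at 50.5 ± 5.93 FPKM in KO, 49.6 ± 2.19 in HET and 46.0 ± 5.15 in WT, and Cdk2 at 37.6 ± 2.46, 36.1 ± 1.03 and 33.3 ± 2.33 in KO, HET and WT (adjusted p = 0.506 and 0.259 for KO against WT). The retinoblastoma gene Rb1 was at 20.7 ± 3.30 FPKM in KO and 23.0 ± 2.09 in WT, its relative Rbl1 at 10.2 ± 0.617 in KO and 8.85 ± 1.77 in WT, and Rbl2 at 19.8 ± 2.601 in KO and 18.8 ± 2.519 in WT, none past the threshold.

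Of 24 S phase genes that E2F factors are known to drive, 1 fell and 0 rose in KO cells, where 1.63% of all genes fell. This was Prim1, a primase subunit, at 20.5 ± 1.68 FPKM in KO and 26.5 ± 0.437 in WT (log2 difference -0.36 ± 0.09, limma adjusted p = 0.0491), and its call ended (adjusted p up to 0.21) without any of KO replicates 1 and 3, HET replicates 2 and 3 or WT replicates 1 to 3. It also ended with no filter on low values (adjusted p = 0.0923), in TPM (0.0798) and with only the compared groups fitted (0.0718). The median of the list was -0.13, against 0.04 over all genes tested. Of 19 genes for the turnover of inhibitors and cyclins, 1 rose in both KO and HET cells, Fbxo31, a ubiquitin ligase subunit known to target cyclin D1. Fbxo31 was at 7.16 ± 0.231 FPKM in KO, 6.84 ± 0.112 in HET and 5.14 ± 0.275 in WT (KO minus WT 0.41 ± 0.08, adjusted p = 0.0246; HET minus WT 0.35 ± 0.08, adjusted p = 0.0411). The KO call ended without KO replicate 1 or 3, HET replicate 2 or WT replicate 2 or 3 (up to 0.138), and the HET call without KO replicate 1 or 3, any HET replicate or WT replicate 2 or 3 (up to 0.13). The KO call also ended in TPM (adjusted p = 0.054) and with only the compared groups (0.0679), and the HET call after quantile normalization (0.0747), with size factors (0.0513) and with only the compared groups (0.0876).

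Of 10 MYC partners 1 fell in KO cells, Mxi1, which competes with MYC for MAX, at 15.4 ± 3.57 FPKM in KO and 25.9 ± 1.55 in WT (-0.73 ± 0.15, limma adjusted p = 0.0256); its call ended without KO replicate 1 or 3 or WT replicate 2 or 3 (up to 0.121), or with no filter on low values (0.0824). Immediate early genes, the first wave after a growth or stress signal, were the list with the most calls. In KO cells 8 of 21 rose and 0 fell, where 1.36% of all genes rose, and in HET cells 6 of 21 rose, where 2.94% did. As the lists were chosen with earlier results of these data known, these counts are a description only. Fos reached 390.0 ± 38.2 FPKM in KO and 269.2 ± 38.1 in HET, against 83.6 ± 11.1 in WT (adjusted p = 1.83e-06 for KO and 2.44e-05 for HET), and Fosb 156.7 ± 13.7 in KO and 120.5 ± 18.2 in HET, against 39.9 ± 10.2 in WT (0.000134 and 0.000249). Nr4a1 rose in KO cells (log2 difference 1.17, limma adjusted p = 0.000813) and less in HET cells (0.50, adjusted p = 0.0442). That HET call ended in 12 of 17 alternatives. Klf4 rose in HET cells (1.02, limma adjusted p = 0.00134) and in KO cells (1.03, adjusted p = 0.00231). Fos thus stood high in both KO and HET cells, unlike Cdkn2c, which stood high in KO cells alone. In bone marrow, 0 of 153 tested genes of these lists passed limma's test in KO against WT, where 0% of all genes did. Of the 153, 10 (6.54%) had an unadjusted p under 0.05, where 5.11% of all genes did. Fos was at 3595 ± 604 FPKM in KO marrow and 1052 ± 256 in WT marrow, without overlap (1.79 ± 0.32, limma adjusted p = 0.317). Fosb, Nr4a1 and Klf4 overlapped between KO and WT marrow. In HET against WT 1 of the 153 was called, where 0.262% of all genes were, and 24 (15.7%) had an unadjusted p under 0.05, where 12.4% did. This was Cdc37, a chaperone partner known for helping CDK4 to fold, named after its values were seen: it was at 84.1 to 104.1 FPKM in KO, listed at 0 in both HET libraries and at 71.5 to 140.1 FPKM in WT (limma adjusted p = 0.0455). Its call ended with only the compared groups fitted, after quantile normalization, with a replicate block and without any 1 of the KO or WT libraries.

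**Figure D5:**
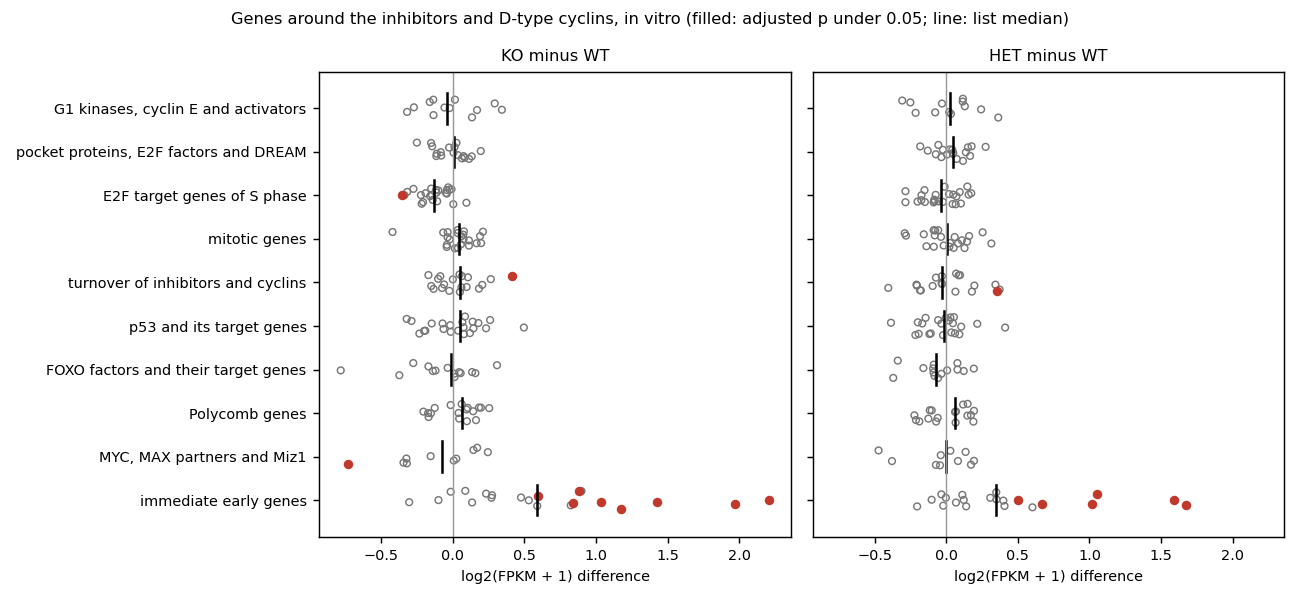
Differences in log2(FPKM + 1) in vitro for the tested genes of 10 lists, KO minus WT on the left and HET minus WT on the right; each circle is a gene, filled where its adjusted p was under 0.05, and the line is the list's median. Immediate early genes hold 8 filled circles in KO and 6 in HET, and the cell cycle lists hold 0 or 1 each.

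The genes whose values ran most like Cdkn2c over the 9 in vitro libraries (Pearson r of log2(FPKM + 1) among 10867 genes; the points share libraries and genotype, and no test was made) were Apobec3, a cytidine deaminase that restricts retroviruses (r = 0.981), Fam169b (0.972), the peptide transporter gene Slc15a2 (0.967), the P-selectin gene Selp (0.965) and Hlf, a transcription factor gene of hematopoietic stem cells (0.956). Apobec3 was at 33.1 to 34.2 FPKM in KO, 18.1 to 18.8 in HET and 19.7 to 23.0 in WT, so it shared the step in KO. Selp was at 21.1 to 21.3 FPKM in KO, 11.7 to 13.1 in HET and 12.3 to 13.9 in WT. Slc15a2 was at 2.64 to 3.06 FPKM in KO, 0.406 to 0.533 in HET and 0.369 to 0.589 in WT, and Hlf at 2.42 to 2.84 in KO, 0.551 to 0.873 in HET and 0.561 to 0.945 in WT. The genes that ran most against it were Pmvk, a kinase gene of the mevalonate pathway (r = -0.975; 12.6 to 13.0 FPKM in KO, 14.9 to 15.3 in HET and 14.6 to 15.5 in WT), and the sialyltransferase gene St6gal1 (r = -0.964).

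Among the other members, the gene that ran most alike was Reps1 for Cdkn1a (r = 0.990), Pdzd8 for Ccnd2 (0.996), Rad51c for Cdkn2d (0.981), Cyp4f18 for Cdkn2a (0.968), Shisa5 for Ccnd3 (0.957), Muc2 for Cdkn1b (0.948), C1qtnf12 for Cdkn1c (0.930) and Gm15706 for Cdkn2b (0.925). Reps1 was at 22.88 to 23.96 FPKM in KO, 22.7 to 28.2 in HET and 30.5 to 32.8 in WT. As for Cdkn1a, the WT libraries lay above all others, while KO and HET libraries overlapped for Reps1 and nearly touched for Cdkn1a.

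Markers of several cell types moved with the genotype in vitro too. Of 12 tested stem and progenitor genes, 2 rose in KO against WT and 3 in KO against HET, where 1.36% and 0.598% of all genes rose. Their summed level over 14 genes was 469.8 to 517.8 FPKM in KO, 468.0 to 500.3 in HET and 450.8 to 470.6 in WT, and Hlf is one of them. Of 15 neutrophil genes 0 were called in KO against WT, where 2.99% of all genes were, and 5 rose in HET against WT, where 2.94% rose. In KO against HET 2 of the 15 fell, where 1.39% of all genes fell. The summed neutrophil level was 5603 to 9619 FPKM in KO, 7439 to 9949 in HET and 6029 to 7694 in WT. Of 9 monocyte and macrophage genes 2 rose in KO and 5 in HET against WT, and 3 fell in KO against HET. C1qb was at 0 in KO and HET libraries, Mrc1 and C1qa at 0 in KO libraries and C1qa at 0 in WT libraries. Of 6 eosinophil genes 1 fell in KO against WT, where 1.63% of all genes fell. Their summed level was 1208 to 1641 FPKM in KO, 1426 to 2816 in HET and 2217 to 2918 in WT. Among 11 erythroid genes 1 fell in HET against WT, where 0.735% did, and among 7 megakaryocyte genes 1 fell in KO against WT. Among 2 plasma cell genes 1 rose in HET against WT, and among 2 stroma and endothelium genes 1 fell in KO against HET. The part of these cell types in the levels of the inhibitors and cyclins was not tested.

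In GRCm38.p6 coordinates, Cdkn2a (chr4:89274473-89294619) and Cdkn2b (chr4:89306289-89311032) lie side by side, and Cdkn2c (chr4:109660876-109666756) lies on the same chromosome. Cdkn2d lies at chr9:21288459-21291421, Cdkn1a at chr17:29090979-29100722, Cdkn1b at chr6:134920401-134925525, Cdkn1c at chr7:143458339-143461059, Ccnd1 at chr7:144929931-144939831, Ccnd2 at chr6:127125162-127152188 and Ccnd3 at chr17:47505051-47599689. Exons of Cdkn1a, Cdkn1c, Ccnd1, Ccnd2 and Ccnd3 overlap those of a gene on the other strand (for Ccnd3 this is Bysl). The strand setting of the counting is not given in the sources used here, so reads of these 5 genes and their partners cannot be told apart; the 4 INK4 genes and Cdkn1b have no such overlap.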

How the data were processed

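The values were FPKM deposited by the authors in 1 table for the in vitro set (9 libraries) and 1 for the bone marrow set (8 libraries). TRIzol RNA went into libraries of a VAHTS Universal kit, per the labels' protocols, and mm10 is named as the build, per the submitters' processing notes. Not given in the sources used here are the aligner, counter, annotation and strandedness. FPKM hold no raw counts, so depth was only approximated from the steps between low values of single-exon genes and entered no test; a few abundant transcripts can lower the FPKM of every other gene.

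Differences were fitted with limma 3.58.1 (statmod 1.5.0, R 4.3.3) on log2(FPKM + 1), with a trend and robust moderation, for genes that reached an FPKM of 1 in 3 or more libraries of their table (10877 in vitro, 7246 in bone marrow). A set's genotypes shared a fit without a block; adjusted p-values are Benjamini-Hochberg values over all genes of that table, with a threshold of 0.05. Sums, shares and ratios were compared by exact permutation tests (scipy 1.17.1). The fit was also run on simulated data, with changes added to KO only and no depth effect. Its outcome is not reported here. The labels do not tie libraries to separate mice, so a p-value here measures spread between libraries only.

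The members and gene lists were chosen with earlier results of these data known. The text names all 10 members, up to 3 called genes per pathway list and direction, the kinase and pocket protein genes, the 5 genes most like and 2 least like Cdkn2c, and the gene most like each other member, of which that for Ccnd1 is not reported here. Alternatives were a pseudocount of 0.1, other filters and scalings, only the compared groups, a replicate block, and leaving out each library. Promoter sequences and positions are from RefSeq.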

Additional observations from a re-analysis of the deposited data

How the results depend on the processing

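Cdkn2c in vitro kept its direction under all alternatives, between 0.61 and 0.69 (log2, KO minus WT), and so did Cdkn1a, between -0.56 and -0.45. For HET minus WT, Cdkn2c ranged from -0.15 to -0.038, the latter in TPM. Without a library each in turn, counts of called members ran in vitro from 0 to 1 for HET against WT and 0 to 1 for KO against HET, and from 0 to 2 in bone marrow for HET against WT; with only the compared groups, KO against HET called 1.

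Sums that reversed when a library was left out ranged, in vitro for HET minus WT, over -5.47 to 3.86 FPKM (INK4) and -2.83 to 17.3 FPKM (cyclins), and the Cdkn2c share in bone marrow over -18.1 to 24.5 points. Single genes that reversed ranged over (log2), in vitro HET minus WT, -0.18 to 0.28 (Cdkn2b), -0.0555 to 0.21 (Cdkn1b), -0.26 to 0.0049 (Ccnd1), -0.0652 to 0.16 (Ccnd3), -0.0824 to 0.0622 (Rb1) and -0.0625 to 0.13 (Rbl2); KO minus HET, -0.32 to 0.037 (Cdkn2b) and -0.14 to 0.0646 (Cdkn2d); KO minus WT, -0.0292 to 0.17 (Rbl2). In bone marrow they ranged, KO minus WT, over -0.12 to 0.79 (Cdkn2c), -0.84 to 0.66 (Cdkn1b), -0.57 to 0.97 (Ccnd1) and -0.99 to 0.65 (Ccnd2), and, HET minus WT, over -5.95 to 0.98 (Cdkn2c) and -3.43 to 0.0605 (Cdkn1b). Quantile normalization reversed Ccnd1 (-0.30, KO minus WT) and Ccnd2 (0.33, HET minus WT) in bone marrow and Rbl2 in vitro (-0.0093, HET minus WT), and TPM reversed Rb1 (0.0495). None of these was called with all libraries, and the cause was not tested. Values given with no test also crossed 0 when a library was left out: in vitro KO minus WT ranged over -0.28 to 0.0636 (Cdkn2a), -0.33 to 0.11 (Cdkn2b), -0.20 to 0.0669 (Ccnd1), -0.0084 to 0.17 (Ccnd2) and -0.16 to 0.0669 (Ccnd3) on the log2 scale, -14.8 to 5.33 FPKM (cyclin sum) and -0.544 to 8.78 FPKM (INK4 sum), and the ratio of inhibitors to cyclins for KO minus HET over -0.136 to 0.0862.

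Over all genes, calls in vitro for HET against WT were 400, against 250 with no filter, 234 with the replicate block and 84 (without HET replicate 3) to 628 (without KO replicate 2); for KO against HET 216, against 136 at FPKM of 5 and 73 (without HET replicate 3) to 344 (without WT replicate 1); for KO against WT 325, against 152 with no filter, 176 with only these groups, 172 with the block and 66 (without KO replicate 3) to 475 (without KO replicate 2). In bone marrow they were 0 for KO against WT, against 2 (quantile) and 4 (without WT replicate 3), and 19 for HET against WT, against 35 (pseudocount), 12 (quantile), 0 (only these groups), 0 (block) and 0 to 323 without a library (323 without HET replicate 3). Higher calls were 320 of 400 for HET against WT, but 262 of 435 under quantile normalization, and 148 of 325 for KO against WT, but 120 of 342 (quantile) and 121 of 344 (size factors). The median over all genes was -0.99 in bone marrow HET minus WT and -0.03 after quantile normalization; in KO minus WT it was -0.18, and -0.34 in TPM.

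Deviations from the genotype mean were correlated between libraries of different genotypes. Pairs with the same replicate number had r of -0.303 to 0.181 in vitro (over 0.1 in 3 of 9 pairs) and -0.0191 to 0.0323 in bone marrow. Pairs with different numbers had r of -0.331 to 0.374 in vitro (over 0.1 in 8 of 18) and -0.0373 to 0.021 in bone marrow. With 2 or 3 libraries per genotype, these values cannot show whether the numbers pair samples. The block changed no call of a member and ended those of Prim1, Fbxo31 and, in bone marrow, Cdc37. Depth limits the 2 HET marrow libraries most.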
